A study of Mus musculus with 18 samples.

Results

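The early response of bone marrow macrophages (BMMs) to RANKL was measured as the difference between 3 arrays of control pre-osteoclasts and 3 arrays of control BMMs, 6 of the 18 arrays of the study. Both groups were ERα f/f, that is, they came from mice whose ERα gene is floxed but intact because they carry no Cre. The mice were littermates of ERα ΔLysM animals on a C57BL/6 background and 2 to 3 months old. Their bone marrow cells were grown into BMMs with 30 ng/ml M-CSF for 4 days, and pre-osteoclasts were these cells after a further 2 days with 30 ng/ml M-CSF and 30 ng/ml RANKL. The study's text states that cells received 10 nM E2 for 4 h before RNA was taken, which the sample labels leave out, so both groups may share this exposure. There was no culture kept in M-CSF alone for the same time, and the effect of RANKL and that of 2 more days of culture cannot be told apart. BMMs came from 3 mice per genotype, but whether the 3 arrays of a group are 3 mice is not given in the sources used here, so the p values measure the spread between these samples, which may be technical.

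M-CSF keeps macrophages and their precursors alive and dividing, and RANKL, a member of the TNF family, binds RANK on these cells and turns them toward the osteoclast, the giant cell that dissolves bone. RANK signals through TRAF6 to NF-κB and, with c-Fos, to NFATc1, the transcription factor that switches on the genes for cell fusion, acid secretion and collagen breakdown. The precursors leave the cell cycle, lose macrophage functions and build the many mitochondria that a mature osteoclast is known for.

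Of 25697 probes with an ID, 11966 had a detection p below 0.05 on at least 3 of the 6 arrays and were tested with limma. They stood for 8108 genes, each read through the probe with the highest mean level. The difference was broad: 5785 probes (48.3%) passed an adjusted p of 0.05, 2997 higher and 2788 lower in pre-osteoclasts, and 6569 had an unadjusted p below that value. By gene, 2058 (25.4%) rose and 1979 (24.4%) fell, together 49.8% of those tested. These shares are the background for every count below. A rise of more than 1 log2 unit was found for 703 genes and a fall of that size for 897. Changes past 4 log2 units were found for 39 genes that rose and 40 that fell. The median difference of all genes was 0.04 log2 units.

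**Figure D1:**
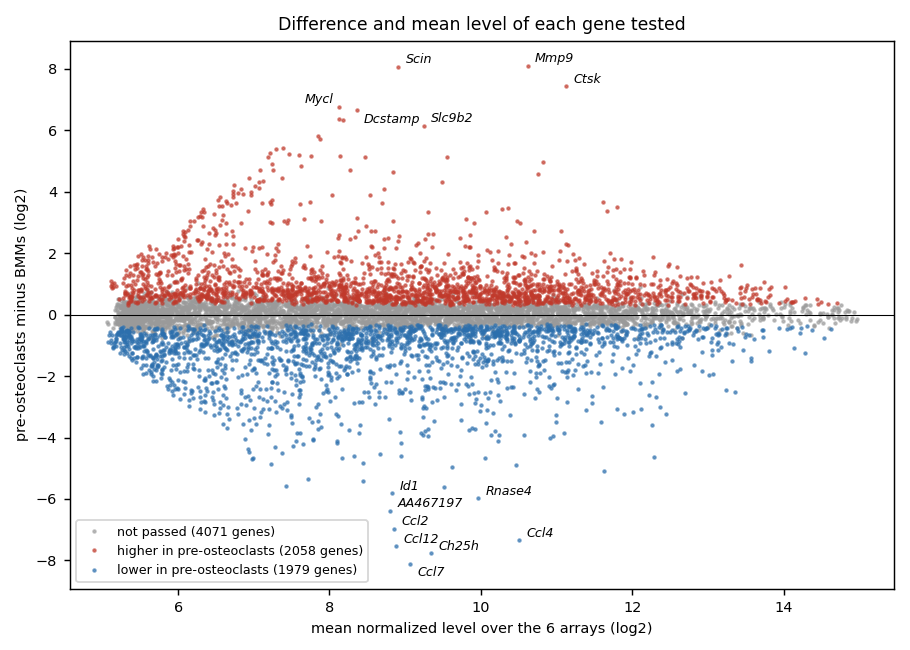
Difference between control pre-osteoclasts and control BMMs in log2 units against the mean log2 level over the 6 arrays, 1 point for each of the 8108 genes tested. Red points rose (2058 genes), blue points fell (1979 genes) and grey points did not pass. The largest changes in either direction reached about 8 log2 units, among them Mmp9, Scin and Ctsk above and Ccl7, Ch25h and Ccl12 below.

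The arrays of the 2 groups lay far apart. A single principal component took up 87.4% of the variance over the 6 arrays. The Euclidean distance between arrays was 113 to 118 across the groups, against 41.3 to 43.3 among pre-osteoclasts and 28.4 to 32.2 among BMMs. The median scanner signal was 131 to 181 in pre-osteoclasts and 165 to 191 in BMMs, and 11333 to 11948 and 11686 to 12031 probes were detected. Pre-osteoclast replicate 3 was the dimmest array, and without it 5513 probes passed. The normalization sets all arrays to 1 distribution. When arrays were only centred on their medians, 1147 probes were higher and 3159 lower, which put 26.6% of the calls on the higher side in place of 51.8% and the median of all probes at -0.24 instead of 0.05 log2 units. Fewer probes were called higher with that scaling, and the count with centred arrays is given beside several lists of small changes. Each value is a level in a whole culture, so more cells of a type and more RNA per cell cannot be told apart.

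The genes an osteoclast needs to dissolve bone were already high after 2 days. Of 16 tested genes of resorption and osteoclast identity, 14 rose, 0 fell and 2 did not pass, with a median difference of 1.78 log2 units (12 higher with centred arrays). Ctsk, the collagen-degrading protease cathepsin K, had log2 levels of 14.94, 14.85 and 14.73 on the pre-osteoclast arrays, against 7.46, 7.37 and 7.38 on the BMM arrays. The groups lay far apart, and Ctsk was also above detection in every BMM array. Its rise was 7.44 ± 0.12 log2 units (standard error), or 173-fold, with an adjusted p of 1.19e-08. Mmp9, the gelatinase of the osteoclast, read 14.81, 14.57 and 14.64 in pre-osteoclasts, against 6.37, 6.39 and 6.95 in BMMs on the log2 scale, again with no overlap. Its rise was 8.11 ± 0.18 log2 units (276-fold, adjusted p = 2.45e-08). Acp5, which encodes the enzyme TRAP that is stained to count osteoclasts, averaged 10.33 ± 0.12 in pre-osteoclasts and 5.17 ± 0.23 in BMMs on the log2 scale (SD, n = 3 each) and was detected on only 1 BMM array. Its difference was 5.16 ± 0.15 log2 units, with a BMM mean below the lowest level detected on those arrays (5.26 to 5.34), so the size of the rise is approximate.

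The acid side of resorption rose unevenly. Car2, the carbonic anhydrase that supplies protons, read 10.94, 10.85 and 10.51 in pre-osteoclasts, against 4.82, 4.84 and 5.16 in BMMs on the log2 scale and was detected on no BMM array, so its rise is given as a bound, at least 44.0-fold, measured against the lowest level detected on those arrays. Slc9b2, a sodium-proton exchanger, rose by 6.14 log2 units. The chloride channel gene Clcn7, the bicarbonate exchanger gene Slc4a2 and Tcirg1, the pump subunit whose loss stops resorption, rose by 1.66, 1.41 and 1.41 log2 units. Of 16 tested subunits of the vacuolar proton pump, 10 rose, 1 fell and 5 did not pass, with a median of 0.53 log2 units, and only 4 were higher with centred arrays. Atp6v1b2 and Atp6v1d, both of the cytosolic head of the pump, rose by 1.61 and 1.56 log2 units. Atp6v0a1, another form of the membrane subunit that Tcirg1 encodes, read 7.85, 7.89 and 7.80 in pre-osteoclasts, against 10.68, 10.29 and 10.84 in BMMs on the log2 scale. It fell by 2.76 ± 0.16 log2 units (adjusted p = 2.05e-06), so the 2 forms changed in opposite directions. Of the other forms of that subunit, Atp6v0a2 differed by 0.23 log2 units and did not pass. The probes of Atp6v0d2, Calcr and Itgb3, 3 further genes of the osteoclast, lay below the filter. The Calcr probes were detected on at most 1 pre-osteoclast array and no BMM array, Itgb3 on 0 pre-osteoclast arrays and 1 BMM array, and Atp6v0d2 on none of the 6.

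The window from 250 bases before to 50 bases after the start of Ctsk is shown because Ctsk is a known NFATc1 target and rose more than 7 log2 units. The sequence is that of RefSeq for GRCm38.p6 (chr3:95498960-95499259, plus strand), and capitals mark the core letters bound by NFAT factors, GGAAA, which stand here on the opposite strand.
Ctsk promoter: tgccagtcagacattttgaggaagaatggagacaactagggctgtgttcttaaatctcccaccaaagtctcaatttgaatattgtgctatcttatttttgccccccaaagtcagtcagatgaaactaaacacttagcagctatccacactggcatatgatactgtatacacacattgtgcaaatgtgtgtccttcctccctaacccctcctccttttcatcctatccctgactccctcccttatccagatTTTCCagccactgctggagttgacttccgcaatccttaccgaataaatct
The letters GGAAA on either strand were found at 1 place in this window. They were present in 61.3% of the windows of 27025 genes and in 57.9% of those of 19 genes of the osteoclast, fusion and actin lists that rose. The letters of an AP-1 site, TGANTCA, were in 0 of these 19 windows and in 7.93% of all.

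Fusion and the cytoskeleton were led by a few genes of very large change. Dcstamp, a membrane protein without which osteoclast precursors do not fuse, had log2 levels of 11.94, 11.43 and 11.69 on the pre-osteoclast arrays, against 4.96, 5.21 and 4.93 on the BMM arrays. No BMM array detected it, and the rise was at least 83.3-fold (adjusted p = 3.3e-08). Its partner Ocstamp rose at least 17.5-fold, also from a level that no BMM array detected. Of 13 tested fusion genes, 4 rose, 5 fell and 4 did not pass, and the median was -0.05 log2 units. The genes that fell included Cd81, a tetraspanin, and Trem2, the receptor that pairs with DAP12, with differences of -2.55 ± 0.14 and -2.20 ± 0.15 log2 units. Scin, which encodes the actin-severing protein scinderin (adseverin), averaged 12.94 ± 0.20 in pre-osteoclasts and 4.87 ± 0.11 in BMMs on the log2 scale (SD, n = 3 each). It was below detection on all BMM arrays and rose at least 199-fold. Src, the kinase needed for the ruffled border, read 9.89, 10.40 and 10.28 in pre-osteoclasts, against 4.94, 5.10 and 4.96 in BMMs on the same scale and rose at least 29.5-fold, although a second Src probe differed by 0.37 log2 units and did not pass. Of 17 tested genes of Src, Syk and Tec signalling it was the 1 that rose, while 6 fell and 10 did not pass. Fyn, another Src-family kinase, fell by 2.01 log2 units on 1 probe and differed by -0.27 on a second that did not pass, and Syk itself differed by -0.27 log2 units and did not pass.

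Among 23 tested genes of the actin ring and podosomes, 8 rose and 5 fell (4 and 5 with centred arrays), with a median of 0.13 log2 units. Rhou, an atypical small GTPase, rose by 3.89 log2 units, and Pxn, the adaptor paxillin, rose by 1.60. Plek, the macrophage and platelet protein pleckstrin, fell by 3.79 log2 units, and Ptk2b, the adhesion kinase PYK2, fell by 1.69. Of the integrin subunits, Itgav rose by 1.51 and Itgb7 rose by 2.26 log2 units, while Itgb5, another partner of the αv chain, fell by 2.71 and Itga6 fell by 3.24. The cathepsins split in the same way. Besides Ctsk, the cystatin gene Cst7 rose at least 1.86-fold, and Ctsc, Ctsh, Ctss and Ctsl, cathepsins of the macrophage lysosome, fell, with differences of -2.63, -1.89, -1.49 and -1.18 log2 units. Mmp14, the membrane-bound collagenase, rose by 4.98 log2 units, whereas Mmp13 fell by 2.80 and Mmp12, the macrophage elastase, fell by 1.66.

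**Figure D2:**
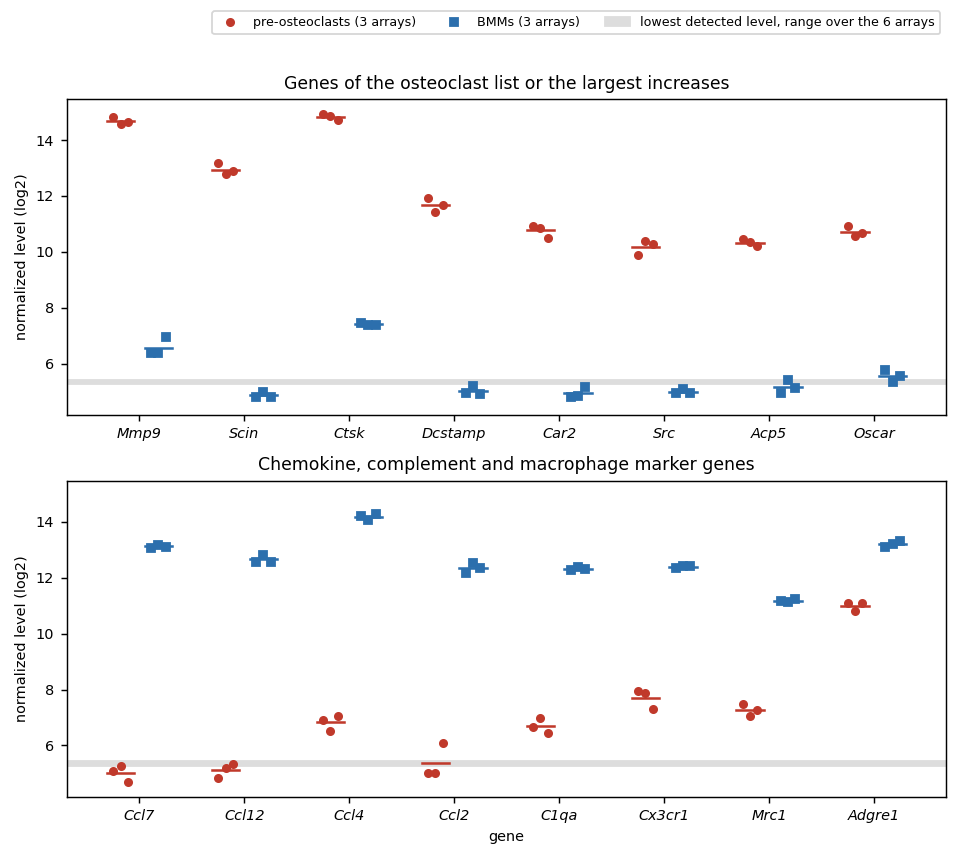
Normalized log2 levels of 16 genes on each array, control pre-osteoclasts (red circles) left of control BMMs (blue squares), with the group mean as a line and the range of the lowest detected level over the 6 arrays as a grey band. In the upper panel all pre-osteoclast arrays lie above all BMM arrays, and in the lower panel all lie below. Scin, Dcstamp, Car2 and Src lie under the band in BMMs, and Ccl7 and Ccl12 lie under or in it in pre-osteoclasts.

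The transcription factors of osteoclast fate moved in both directions. Nfatc1 had log2 levels of 10.52, 10.44 and 10.32 on the pre-osteoclast arrays, against 9.22, 9.15 and 9.33 on the BMM arrays. The groups did not overlap, and the rise was 1.19 ± 0.12 log2 units (2.29-fold, adjusted p = 6.89e-05). The AP-1 genes Fos and Junb rose by 1.21 and 1.31 log2 units, and Spi1, which encodes the myeloid factor PU.1, rose by 0.91, a call lost with centred arrays. Jdp2, an AP-1 partner that binds the same sites as Fos and Jun, read 13.29, 12.78 and 13.04 in pre-osteoclasts, against 8.30, 8.74 and 8.37 in BMMs on the log2 scale and rose by 4.57 log2 units. Prdm1, the repressor Blimp1, was not detected in BMMs and rose at least 3.82-fold, and Mitf, a factor that works with NFATc1 on Ctsk and Acp5, rose by 1.87 log2 units. Mycl, which encodes L-Myc and is not in the list of factors, was also detected on no BMM array and rose at least 73.6-fold. Of 24 tested factors in this list, 8 rose, 10 fell and 6 did not pass (median 0.00 log2 units). Mef2c fell by 3.33 log2 units, and Cebpb, a factor of macrophage genes, fell by 1.93.

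Factors that hold back osteoclast formation were mostly lower, with 9 of 12 tested lower, 1 higher and a median of -1.19 log2 units. Irf8, a factor of macrophage identity that blocks NFATc1, read 5.77, 5.18 and 5.20 in pre-osteoclasts, against 9.59, 9.73 and 9.67 in BMMs on the log2 scale, and only 1 pre-osteoclast array detected it. Its difference was -4.28 ± 0.17 log2 units (19.5-fold, adjusted p = 3e-07), an approximate size. Id1, Id2 and Id3, which bind and silence helix-loop-helix factors, fell, with differences of -5.82, -2.89 and -2.03 log2 units. The repressor Bcl6 fell by 2.02 and the homeobox gene Hhex fell by 1.63 log2 units. Klf2, a factor that keeps macrophages quiet, fell by 3.41 log2 units and led the 7 of 13 KLF and EGR genes that fell.

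Receptors and adaptors of osteoclast signalling were mostly lower, 10 of 15 tested against 3 that rose, with a median of -1.03 log2 units. The receptor gene Tnfrsf11a (RANK) read 10.89, 10.48 and 10.65 in pre-osteoclasts, against 9.80, 10.38 and 10.21 in BMMs on the log2 scale, a rise of 0.54 ± 0.18 log2 units with an adjusted p of 0.0359. That call was lost without BMM replicate 1 or 3 or pre-osteoclast replicate 1 or 3 (adjusted p of 0.118, 0.0682, 0.103 and 0.0626). With centred arrays the difference shrank to 0.13 log2 units and did not pass (adjusted p = 0.756). Array weights, a fit without the filter and a replicate block also lost the call (adjusted p of 0.051, 0.0659 and 0.0761). Oscar, the collagen receptor that signals through the FcRγ chain, read 10.92, 10.55 and 10.68 in pre-osteoclasts, against 5.78, 5.33 and 5.57 in BMMs and rose by 5.16 log2 units (35.7-fold). Tnfrsf9, the TNF receptor 4-1BB, rose at least 3.24-fold. Trem1 and Cd33, receptors of the macrophage surface, were detected on no pre-osteoclast array and fell at least 15.4-fold and at least 5.72-fold. Clec5a fell by 2.47 log2 units, and Fcer1g, the FcRγ chain itself, fell by 1.24.

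Of 23 tested NF-κB and RANK signalling genes, 12 rose, 2 fell and 9 did not pass, with a median of 0.49 log2 units (8 higher with centred arrays). Traf1, an adaptor induced by NF-κB, had log2 levels of 11.56, 11.65 and 11.69 on the pre-osteoclast arrays, against 7.07, 7.26 and 7.65 on the BMM arrays. The groups did not overlap, and the rise was 4.31 ± 0.16 log2 units (19.9-fold, adjusted p = 2.09e-07). The alternative pathway genes Nfkb2 and Relb rose by 1.69 and 1.11 log2 units. Rela, of the classical pathway, read 11.76, 11.36 and 11.42 in pre-osteoclasts, against 11.71, 11.81 and 11.79 in BMMs on the log2 scale, with overlapping groups and a difference of -0.25 log2 units that did not pass (adjusted p = 0.176), although it passed without pre-osteoclast replicate 1 (adjusted p = 0.0365). The inhibitors of the pathway rose too: Tnfaip3, the A20 enzyme, by 1.72 log2 units, Nfkbie by 1.05 and Nfkbia by 1.05. The 2 genes that fell were Nfkbiz, a nuclear cofactor of inflammatory genes, and Ikbke, a kinase of the interferon response, with differences of -2.59 and -1.93 log2 units.

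Genes of the macrophage surface were lower with 1 exception. Of 20 tested, 19 fell, 0 rose and Cd80 did not pass, and the median was -3.01 log2 units. Cx3cr1, the fractalkine receptor, read 7.96, 7.88 and 7.30 on the pre-osteoclast arrays, against 12.35, 12.41 and 12.40 on the BMM arrays on the log2 scale. The arrays of the groups were separated by more than 4 log2 units, and the difference was -4.68 ± 0.18 log2 units (25.6-fold, adjusted p = 2.24e-07). The mannose receptor gene Mrc1 read 7.49, 7.06 and 7.28 in pre-osteoclasts, against 11.16, 11.14 and 11.25 in BMMs and fell by 3.91 log2 units. Mertk, a receptor for dying cells, and Fcgr1, the high-affinity IgG receptor, were detected on no pre-osteoclast array and fell at least 11.1-fold and at least 13.2-fold. Adgre1, the classic surface antigen of mouse macrophages, fell by 2.21 log2 units and stayed above detection, at 11.09, 10.81 and 11.10 in pre-osteoclasts, against 13.11, 13.21 and 13.31 in BMMs on the log2 scale. Lyz2, the lysozyme M gene whose locus drives Cre in the study's mutant mice, fell by 0.50 log2 units (adjusted p = 0.0196). The call for Lyz2 was lost without BMM replicate 1 or 3 or pre-osteoclast replicate 3 (adjusted p of 0.0686, 0.067 and 0.0556). Csf1r and Cd68 were not analysed here.

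Most chemokine genes of the BMMs were lower after 2 days. Of 15 tested chemokine ligands, 12 fell and 1 rose, with a median of -3.54 log2 units, and the 1 that rose, Ccl9, lost its call with centred arrays. Ccl7, a ligand that draws monocytes, had log2 levels of 5.08, 5.28 and 4.68 on the pre-osteoclast arrays, against 13.08, 13.18 and 13.10 on the BMM arrays. Every BMM array was high and no pre-osteoclast array detected it, so the fall was at least 214-fold (adjusted p = 2.45e-08). Its neighbour on chromosome 11, Ccl12, read 4.82, 5.18 and 5.33 in pre-osteoclasts, against 12.56, 12.83 and 12.57 in BMMs on the log2 scale and fell at least 155-fold. Ccl2, the monocyte attractant MCP-1, read 5.01, 5.02 and 6.07 in pre-osteoclasts, against 12.17, 12.52 and 12.34 in BMMs on that scale, and only 1 pre-osteoclast array detected it. Its difference was -6.98 ± 0.28 log2 units, an approximate size. Ccl4 and Ccl3, inflammatory chemokines of the CC family, fell, with differences of -7.35 and -4.95 log2 units but stayed above detection on all arrays. Among CXC ligands, Cxcl14, Pf4, Cxcl2 and Cxcl10 fell, with differences of -4.12, -3.94, -3.54 and -2.99 log2 units.

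Genes by which macrophages sense and clear microbes fell with them. All 10 tested genes of complement C1q and the Fcγ receptors fell (median -3.70 log2 units). C1qa, C1qb and C1qc, the 3 chains of C1q, lie on chromosome 4 and fell, with differences of -5.63, -4.64 and -5.08 log2 units. C1qa read 6.65, 6.98 and 6.45 in pre-osteoclasts, against 12.28, 12.38 and 12.31 in BMMs on the log2 scale. Fcgr3 fell by 3.90 log2 units. Of 19 tested Toll-like receptors and partners, 13 fell and 1 rose, with a median of -1.94. Tlr13, Tlr7 and Tlr8, sensors of RNA, fell, with differences of -3.77, -3.03 and -2.82 log2 units, Tlr2, the sensor of lipoproteins, fell by 2.88, and Cd14, which hands lipopolysaccharide to TLR4, fell by 3.08. Tlr4 fell by 1.42 log2 units, while the adaptor Myd88 differed by -0.16 and did not pass. Inflammatory cytokines and mediators were lower for 7 of 11 tested and higher for 2 (7 and 0 with centred arrays). Tnf read 6.77, 6.69 and 6.37 in pre-osteoclasts, against 10.41, 10.02 and 10.19 in BMMs on the log2 scale and fell by 3.60 log2 units, and Il18 fell by 2.81. Ch25h, a gene among the 15 with the largest falls, makes 25-hydroxycholesterol in activated macrophages. It read 5.82, 4.95 and 5.62 in pre-osteoclasts, against 13.09, 13.18 and 13.41 in BMMs on the log2 scale and fell by 7.76 ± 0.22 log2 units (217-fold). The level on pre-osteoclast replicate 2 lay below the lowest level detected on that array (5.43), so the size of the fall is approximate. Of the antigen presentation genes of MHC class II, 3 of 7 fell and 1 rose, and H2-Eb1 differed by 0.05 log2 units and did not pass.

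Interferon-stimulated genes, which respond to the low level of type I interferon that macrophages make, were lower for 16 of 18 tested, with 0 higher and a median of -1.60 log2 units. Oasl2 read 5.66, 5.73 and 5.89 in pre-osteoclasts, against 9.85, 9.65 and 9.94 in BMMs on the log2 scale and fell by 4.05 log2 units. Rsad2, the antiviral enzyme viperin, read 5.58, 5.39 and 5.28 in pre-osteoclasts, against 9.29, 8.82 and 8.87 in BMMs, and only 1 pre-osteoclast array detected it. Its difference was -3.58 ± 0.16 log2 units (11.9-fold, adjusted p = 5.33e-07), an approximate size. Usp18, Ifit3 and Ifit2 fell, with differences of -2.85, -2.73 and -2.49 log2 units, and Stat2 and Irf9, which form the factor that interferon activates, fell, with differences of -1.73 and -1.64. Irf7, the factor that amplifies the interferon response, fell at least 1.41-fold, and Oas1a, a sensor of viral RNA, fell by 1.08 ± 0.16 log2 units (adjusted p = 0.000728). Isg15 fell by 0.86 log2 units, but its call was lost without BMM replicate 1 or 3 or pre-osteoclast replicate 1.

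The start regions of 3 of these genes are shown because the genes fell together and the windows hold letters of the element that the interferon-activated factor binds, GAAANNGAA on either strand. The windows are those of RefSeq for GRCm38.p6, 250 bases before to 50 after the start, read along the gene, with the matching letters in capitals. They lie at chr12:26456403-26456702, minus strand, chr19:34583279-34583578, plus strand, and chr5:120907476-120907775, minus strand.
Rsad2 promoter: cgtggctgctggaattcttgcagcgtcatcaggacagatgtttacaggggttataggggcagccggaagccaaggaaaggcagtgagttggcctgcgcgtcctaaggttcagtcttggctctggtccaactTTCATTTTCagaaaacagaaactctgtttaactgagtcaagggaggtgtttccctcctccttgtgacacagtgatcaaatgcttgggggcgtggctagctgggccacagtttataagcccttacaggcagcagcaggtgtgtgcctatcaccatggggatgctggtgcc
Ifit3 promoter: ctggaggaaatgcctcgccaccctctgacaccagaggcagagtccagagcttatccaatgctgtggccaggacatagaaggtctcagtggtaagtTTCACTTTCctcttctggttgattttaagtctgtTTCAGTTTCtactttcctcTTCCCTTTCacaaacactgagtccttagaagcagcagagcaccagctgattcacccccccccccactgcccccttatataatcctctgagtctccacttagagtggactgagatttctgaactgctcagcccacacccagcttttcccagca
Oas1a promoter: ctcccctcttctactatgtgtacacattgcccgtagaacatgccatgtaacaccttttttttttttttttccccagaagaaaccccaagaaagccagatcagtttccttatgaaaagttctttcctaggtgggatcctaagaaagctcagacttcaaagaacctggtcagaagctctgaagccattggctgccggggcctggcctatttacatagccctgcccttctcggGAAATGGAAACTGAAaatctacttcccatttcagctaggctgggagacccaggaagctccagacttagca
Rsad2 held 1 match, Ifit3 held 3, and Oas1a held 2 that overlap each other. Of the 16 interferon-stimulated genes that fell, 14 had a window and 8 of these (57.1%) held the letters, against 2317 of 27025 windows of all genes (8.57%) and 482 of 6704 windows of the genes tested (7.19%). Oasl2, with the largest fall of the list, had none in this window, and Gbp3, with a difference of 0.08 log2 units that did not pass, had 2. The median GC content was 53.0% in these 14 windows, 52.7% in all windows and 60.7% in those of the genes tested. In 29 windows of chemokine, complement, Fc receptor and macrophage surface genes that fell, the same letters were found in 24.1%, and the PU.1 letters GAGGAAGT in 10.3%, against 3.28% of all windows. The matches describe the sequence and show no binding.

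**Figure D3:**
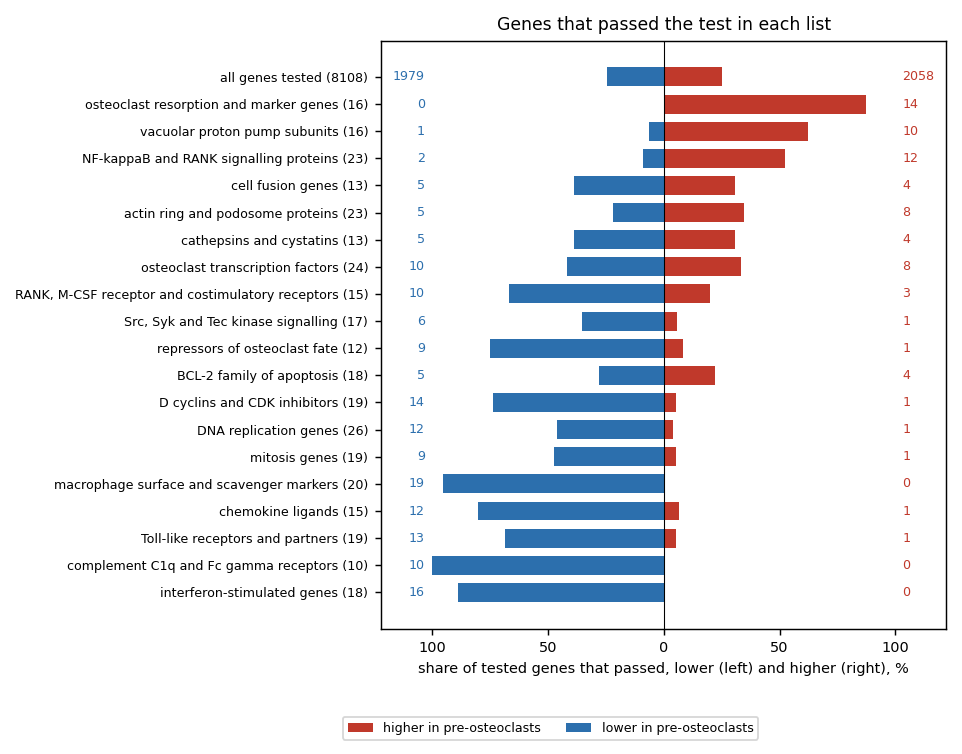
Share of the tested genes of each list that passed, with lower genes to the left and higher genes to the right in %, and their numbers at the margins. The top bar is the background of all 8108 genes, 25.4% higher and 24.4% lower. Osteoclast marker genes reach to the right (14 of 16), and macrophage surface genes (19 of 20) and complement and Fcγ receptor genes (10 of 10) to the left.

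Markers of other marrow cells were examined because such cells can remain in these cultures. Of 14 neutrophil markers with a probe, 12 were tested and 9 of them fell, with a median of -0.91 log2 units. Their summed level on the linear scale was 5671 to 12680.2 in pre-osteoclasts and 14724 to 16240.5 in BMMs, so the groups did not overlap. S100a8, an abundant protein of neutrophil granules, read 11.47, 12.36 and 12.99 in pre-osteoclasts, against 13.06, 13.11 and 12.96 in BMMs on the log2 scale, with overlapping groups, and did not pass. The neutrophil markers Mmp8 and Cxcr2 were below the filter. The 9 markers fell together with the macrophage groups, and their part in those falls was not tested. Among 13 lymphocyte markers with a probe only Cd79b passed the filter, and among 11 erythroid and megakaryocyte markers only 1. The 3 tested dendritic cell markers fell, with summed levels of 142 to 182 in pre-osteoclasts and 301 to 338 in BMMs. Of 10 mast cell and basophil markers with a probe, only Gata2 and Fcer1a were tested. Gata2, a factor of mast cells and early progenitors, rose by 1.28 log2 units, and Fcer1a differed by 0.12 and did not pass. The summed level of the 2 was 90.0 to 149.7 in pre-osteoclasts and 55.4 to 86.4 in BMMs, without overlap, and the part of such cells in the rises was not tested. Of the stromal markers, 12 were below the filter, and 11 of these were detected on none of the 6 arrays, including the collagen genes Col1a1, Col1a2 and Col3a1. Of the 2 that were tested, Alpl differed by 0.56 log2 units and did not pass. Dcn, which encodes the matrix proteoglycan decorin, read 8.88, 8.82 and 8.91 in pre-osteoclasts, against 4.78, 4.86 and 4.71 in BMMs on the log2 scale, a rise of at least 11.8-fold.

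Many genes of proliferation were lower, with the largest fall of the D cyclins for Ccnd2. Ccnd2 had log2 levels of 4.76, 4.58 and 4.59 on the pre-osteoclast arrays, against 10.12, 10.25 and 10.23 on the BMM arrays. No pre-osteoclast array detected it, and the fall was at least 28.3-fold (adjusted p = 2.45e-08). Ccnd1, the cyclin through which M-CSF starts the cell cycle, read 11.92, 12.18 and 11.95 in pre-osteoclasts, against 14.49, 14.40 and 14.48 in BMMs on the log2 scale and fell by 2.44 log2 units, and Ccnd3 fell by 1.61. E2f2 fell by 2.54 log2 units. Of 19 tested D cyclins, E2F factors and CDK inhibitors, 14 fell and 1 rose, with a median of -0.81. The 1 that rose was Cdkn2b, the inhibitor p15 of CDK4 and CDK6, by 2.46 ± 0.19 log2 units, while the inhibitor genes Cdkn1a and Cdkn2d fell, with differences of -1.48 and -1.92 log2 units. Of 26 replication genes 12 fell and 1 rose, and of 19 mitosis genes 9 fell and 1 rose, with medians of -0.31 and -0.43 log2 units. Only 8 replication genes fell without BMM replicate 2, and only 6 mitosis genes fell without BMM replicate 1. With centred arrays 13 and 11 fell. Pcna, the sliding clamp of DNA polymerase, fell by 1.31 log2 units, and Top2a, the topoisomerase of mitosis, differed by -0.31 and did not pass.

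Of 18 tested genes of the BCL-2 family and its partners in apoptosis, 4 rose and 5 fell, shares near those of all genes tested (25.4% and 24.4%). The survival gene Bcl2l1 (BCL-XL) read 5.36, 5.35 and 5.25 in pre-osteoclasts, against 8.66, 8.51 and 8.88 in BMMs on the log2 scale and fell by 3.36 log2 units. Only 1 pre-osteoclast array detected it, so the size of the fall is approximate. Bcl2 was detected on no pre-osteoclast array and fell at least 8.15-fold. Bcl2l11, the killer BIM that sets the life span of osteoclasts, rose by 1.48 log2 units, the related Bmf rose by 2.04, and Bok rose at least 5.42-fold. Bik, another killer, fell at least 6.42-fold. Mcl1, Bak1 and the death receptor gene Fas differed by 0.07, -0.22 and -0.13 log2 units and did not pass, and Fasl was detected on no array.

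Genes of the mitochondrial respiratory chain were mostly higher, by less than 2 log2 units each. Of the subunits of complex I, 20 of 32 rose and 0 fell (median 0.71 log2 units), of complexes II to IV 19 of 22 (median 0.82), and of the ATP synthase 12 of 15 (median 0.65). All 69 of these genes had a difference above 0. The ATP synthase count was 7 without BMM replicate 2, 6 without BMM replicate 3 and 7 without pre-osteoclast replicate 2. With centred arrays 5, 4 and 4 subunits passed, and the list medians lay 0.59, 0.71 and 0.56 log2 units above that of all probes. Cyc1, cytochrome c1 of complex III, had log2 levels of 12.73, 12.92 and 12.89 on the pre-osteoclast arrays, against 11.30, 11.08 and 10.97 on the BMM arrays. The groups did not overlap, and the rise was 1.73 ± 0.13 log2 units (3.32-fold, adjusted p = 1.23e-05). Ndufb10 of complex I, Uqcrc2 of complex III and Atp5o of the ATP synthase rose by 1.51, 1.25 and 1.29 log2 units. Uqcc1, an assembly factor of complex III, rose by 0.94 log2 units, a call lost with centred arrays. Cycs, cytochrome c, read 8.15, 7.12 and 7.88 in pre-osteoclasts, against 6.65, 7.50 and 7.20 in BMMs on the log2 scale with overlapping groups, and its difference of 0.60 log2 units did not pass (adjusted p = 0.128), although it passed without pre-osteoclast replicate 2 (adjusted p = 0.0201). A second Cycs probe rose by 1.16 log2 units.

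The fuel enzymes of the mitochondria were higher as well. Of 15 tested enzymes of the tricarboxylic acid cycle and its entry step, 14 rose and 0 fell, with a median of 1.14 log2 units (9 with centred arrays). Pdhb, a subunit of pyruvate dehydrogenase, read 12.18, 11.97 and 11.87 in pre-osteoclasts, against 10.44, 10.21 and 10.17 in BMMs on the log2 scale and rose by 1.73 log2 units. Idh3a and Mdh2 rose by 1.56 and 1.50 log2 units. Of 16 enzymes of fatty acid oxidation, 13 rose and 0 fell (median 0.76, 3 with centred arrays), led by the thiolase gene Acaa2 at 1.77 log2 units, with Acads and Cpt2 at 1.22 and 1.20. Of 66 mitochondrial ribosomal proteins, 45 rose and 1 fell (median 0.59, 10 higher and 3 lower with centred arrays). Mrps6 was the most changed, with 11.65, 12.22 and 12.30 in pre-osteoclasts, against 9.37, 9.24 and 9.41 in BMMs on the log2 scale and a rise of 2.71 ± 0.18 log2 units. The antioxidant list was split, with 7 of 20 tested higher and 9 lower (2 and 9 with centred arrays). In that list, Prdx3 and Txn2, peroxide defences inside mitochondria, rose by 1.32 and 1.30 log2 units, while Hmox1, Gpx3 and Cat fell, with differences of -3.12, -2.40 and -0.92 log2 units.

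Regulators of mitochondrial biogenesis were higher for 16 of 21 tested and lower for 2, with a median of 0.77 log2 units (6 higher with centred arrays). Ppargc1b, which encodes the coactivator PGC-1β, had log2 levels of 10.76, 10.84 and 10.69 on the pre-osteoclast arrays, against 6.53, 6.90 and 6.57 on the BMM arrays. The groups did not overlap, and the rise was 4.10 ± 0.14 log2 units (17.1-fold, adjusted p = 1.29e-07). Ppargc1a, the related coactivator, was detected on no array. Esrra, the nuclear receptor ERRα that PGC-1β drives, rose by 0.79 log2 units and Tfam, which packs mitochondrial DNA, rose by 0.79, both calls being lost with centred arrays. Dnm1l, the fission GTPase DRP1, rose by 1.54 log2 units. Pparg, the nuclear receptor of fat cells and macrophages, fell by 1.55 log2 units and was 1 of the 2 that fell. In the windows of 56 respiratory chain, ATP synthase and tricarboxylic acid cycle genes that rose, the NRF1 letters GCGCANGCG were in 21.4%, against 14.9% of the genes tested. The ERR letters TCAAGGTCA were in only 2 of the 56 (3.57%), against 21 of 6704 windows of the genes tested (0.313%).

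**Figure D4:**
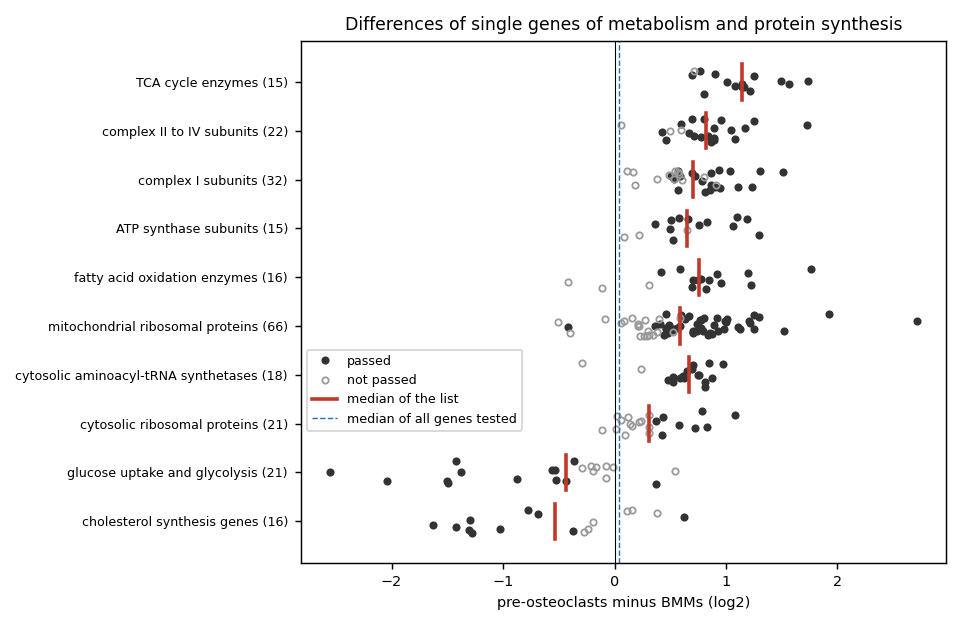
Difference between control pre-osteoclasts and control BMMs in log2 units for each gene of 10 lists, with filled points for genes that passed, open points for those that did not, a red bar at the median of the list and a dashed line at the median of all genes (0.04). The mitochondrial lists lie right of 0, with medians of 0.59 to 1.14, and glycolysis (-0.44) and cholesterol synthesis (-0.53) lie left of it.

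Glucose uptake moved the other way. Of 21 tested genes of glucose uptake and glycolysis, 12 fell and 1 rose, with a median of -0.44 log2 units. The transporters led, and Slc2a3 (GLUT3) read 6.70, 6.84 and 6.36 in pre-osteoclasts, against 9.19, 9.07 and 9.32 in BMMs on the log2 scale, with a difference of -2.55 ± 0.16 log2 units. Slc2a6 and Slc2a1 (GLUT1) fell, with differences of -2.04 and -1.51 log2 units. The hexokinase gene Hk3 fell by 1.50 log2 units, and the lactate exporter Slc16a3 fell at least 1.88-fold. Gapdh, Aldoa and Tpi1, enzymes in the middle of the pathway, differed by -0.08, -0.02 and -0.16 log2 units and did not pass. Hif1a fell by 1.16 log2 units, and 7 of 14 tested genes of the hypoxia response fell, among them Egln3 and P4ha2 with differences of -3.07 and -2.92 log2 units. Cholesterol synthesis was lower for 9 of 16 genes (median -0.53), with differences of -1.42 and -1.28 log2 units for Cyp51 and Sqle. Cholesterol efflux and lipid carrier genes were split, with 3 of 10 tested higher and 5 lower (1 and 5 with centred arrays). Apoe, which carries cholesterol out of macrophages, fell by 2.18 log2 units.

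Of 12 tested genes of iron uptake, storage and export, 2 rose, 6 fell and 4 did not pass, with a median of -0.41 log2 units. Tfrc, the transferrin receptor that brings iron into the cell, read 13.37, 13.21 and 13.35 in pre-osteoclasts, against 11.51, 11.75 and 11.71 in BMMs on the log2 scale and rose by 1.65 log2 units. Slc40a1, the iron exporter ferroportin, read 8.76, 8.76 and 8.74 in pre-osteoclasts, against 11.82, 12.08 and 12.14 in BMMs on that scale and fell by 3.26 log2 units. Neither gene had overlapping groups. Of the serine and amino acid genes, 10 of 17 rose and 5 fell (6 and 5 with centred arrays). Chac1, an ATF4 target, rose by 2.72 log2 units, and Phgdh, Shmt2 and Asns rose by 1.36, 1.15 and 1.43, while the transporter Slc7a8 fell by 3.91. Of 18 cytosolic tRNA synthetases 16 rose and of 23 ribosome biogenesis factors 12 rose, with medians of 0.67 and 0.40 log2 units, but 0 and 1 of them passed with centred arrays. Of 21 cytosolic ribosomal proteins 8 rose, and 1 with centred arrays.

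Several signals that osteoclasts send to other cells were among the genes that rose. Sphk1, which makes sphingosine 1-phosphate, read 9.19, 9.07 and 9.11 in pre-osteoclasts, against 4.99, 4.90 and 4.87 in BMMs on the log2 scale and rose at least 14.1-fold. Efnb1 and Sema4d, membrane ligands read by osteoblasts, rose by 1.71 and 1.19 log2 units, and of 7 tested coupling factors 5 rose and 2 fell (3 and 2 with centred arrays). Vegfc, the lymphatic growth factor, read 10.81, 10.64 and 10.74 in pre-osteoclasts, against 4.94, 4.91 and 5.18 in BMMs and rose at least 42.9-fold. Mt3, a metal-binding metallothionein, averaged 9.16 ± 0.78 in pre-osteoclasts and 4.72 ± 0.19 in BMMs on the log2 scale (SD, n = 3 each) and rose at least 14.4-fold. Receptor genes in this group included Mst1r, Ghr (growth hormone) and F2r (thrombin), which rose at least 27.8-fold, 23.2-fold and 27.3-fold from levels no BMM array detected. The estrogen receptor genes Esr1 and Esr2 were detected on none of the 6 arrays. The paper did measure ERα mRNA by RT-PCR in BMMs, with lower levels after RANKL, and a decline of ERα protein. A lack of detection on these arrays does not mean that ERα is absent.

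The levels in control mature osteoclasts, after 4 days of RANKL, place these changes in time, as values with no test. Of 192 genes higher by more than 2 log2 units at 2 days, 129 had a still higher mean in mature osteoclasts and 13 were back within 1 log2 unit of the BMM mean. Of 329 genes lower by more than 2, 231 had a still lower mean and 11 were back within 1 log2 unit. Ctsk and Mmp9 averaged 14.76 ± 0.07 and 14.86 ± 0.01 on the log2 scale in mature osteoclasts (SD, n = 3), close to their values at 2 days. Oscar and Acp5 averaged 13.74 ± 0.20 and 11.65 ± 0.08 at 4 days, above their 2-day means of 10.72 and 10.33. Mycl and Mitf averaged 9.39 ± 0.22 and 8.01 ± 0.34 at 4 days, below their 2-day means of 11.51 and 9.59. Apoe averaged 10.55 in BMMs, 8.37 at 2 days and 10.49 ± 0.11 at 4 days.

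The same 2-day response was measured in ERα ΔLysM cells, that is, cells of mice whose ERα gene is cut out wherever LysM-Cre is active, and the difference between the genotypes was tested over all 18 arrays. It passed for 8 of 11966 probes (0.0669%), 7 above and 1 below 0, while 1261 had an unadjusted p under the threshold. The median standard error of such a difference was 0.23 log2 units, so small differences were not detectable with 3 arrays a group. Ctsk rose by 6.92 log2 units in ERα ΔLysM cells and 7.44 in control cells, and the difference of -0.52 did not pass (adjusted p = 0.306). Nfatc1 rose by 1.05 and 1.19 log2 units in ERα ΔLysM and control cells, with a difference of -0.14, and Ppargc1b by 4.50 and 4.10, with a difference of 0.40. Neither difference passed.

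**Figure D5:**
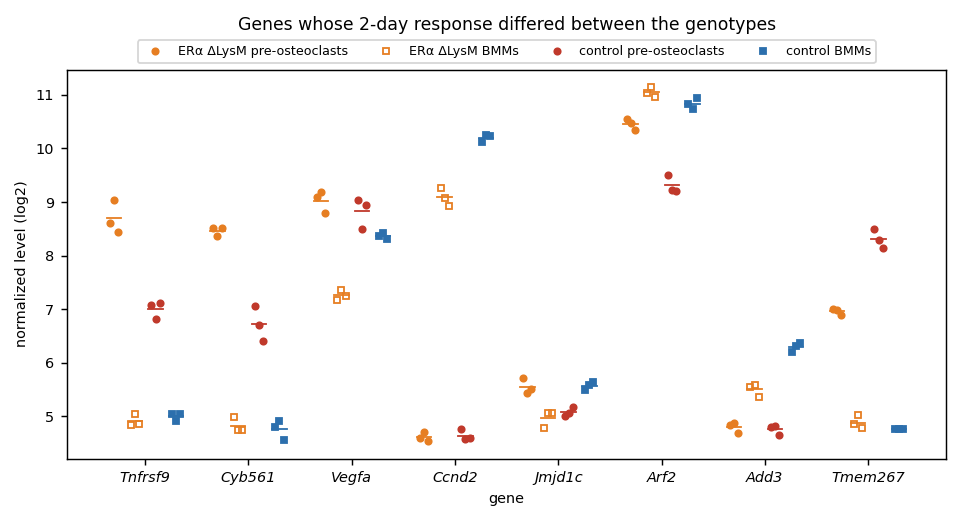
Log2 levels on each array for the 8 genes whose 2-day response differed between the genotypes, ERα ΔLysM pre-osteoclasts and BMMs (orange) left of control pre-osteoclasts (red) and control BMMs (blue), with group means as lines. Tnfrsf9 and Cyb561 were higher in ERα ΔLysM than in control pre-osteoclasts, Tmem267 was lower, and the BMM levels of these 3 genes lay close together.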

How the data were processed

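RNA of BMMs and pre-osteoclasts was read on Illumina MouseRef-8 beadchips. The scanner intensities were deposited by the authors without normalization, with a detection p-value per probe, and 832 features without an ID (3.14%) were left out. The log2 values are those of the authors, and the paper names the R package lumi for them, with settings not given in the sources used here. They lay within 0.0281 of those from background correction and quantile normalization with neqc. The neqc alternative listed below therefore nearly repeats the main data. Of 25697 probes, 23978 had 1 gene symbol, 0 had several and 1719 had none, and 23962 were matched to RefSeq (GRCm38.p6).

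The 3 control pre-osteoclast arrays were compared with the 3 control BMM arrays with limma 3.58.1 in R 4.3.3 (lmFit, eBayes, Benjamini-Hochberg adjustment over 11966 probes). All adjusted p values are from limma. An exact permutation test of 3 against 3 arrays cannot go below 0.1. A gene was read through its probe with the highest mean level. A bound, written "at least", sets the mean of the brighter group against the higher of the lowest detected level and the measured level in the dimmer group, and the number of arrays limits its precision. Of 2243 genes with several probes, 17 had probes that passed in opposite directions. The genotype difference was an interaction over the 18 arrays. On simulated data with 11966 probes, changes of 0.5, 1, 2 and 4 log2 units were recovered for 16%, 72%, 90% and 100% of 50 probes each, and 6.71% of the calls were false. Only 149 probes were called there, against 5785 in the real comparison, so these shares need not hold for the real calls.

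Named genes were the 15 with the largest change each way among those with no overlap, up to 6 per list and direction, list members that did not pass, the genes the study names and those with a genotype difference. Adgre1, Clcn7, Cxcl10, Cxcl2, Fcer1g, Irf7, Irf9, Isg15, Nfkbia, Oas1a, Pf4, Slc4a2, Spi1, Stat2 and Tlr4 were added after their values were seen. The members and lists were chosen with earlier results of these data known. The alternatives were arrays centred on their medians, neqc, no background correction, other filters and thresholds, array weights, all 18 arrays, another prior, a replicate block, and leaving out each array.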

Additional observations from a re-analysis of the deposited data

Results flagged for a closer look

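The 2-day response differed between ERα ΔLysM and control cells, by the interaction test in limma, for 8 genes, about 0.0669% of the probes tested. Tnfrsf9, a TNF receptor, rose by 3.79 log2 units in ERα ΔLysM cells and 2.00 in control cells, a difference of 1.79 ± 0.22 (SE, adjusted p = 0.00234). Cyb561, an electron-carrying membrane protein, rose by 3.64 and 1.97 log2 units in ERα ΔLysM and control cells, a difference of 1.68. Tmem267, a membrane protein, rose by 2.07 in ERα ΔLysM and 3.55 in control cells, a difference of -1.47. None of these 3 genes was detected on a control BMM array, so their responses rest on the pre-osteoclast levels. Their calls held in every alternative run.

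The other 5 calls were lost when only the 12 arrays of these 2 stages were fitted, with a replicate block, and without any of several single arrays. Vegfa, the vascular growth factor, had a difference of 1.31 log2 units, with a rise of 1.77 in ERα ΔLysM and 0.46 in control cells. Its BMM levels were 7.18, 7.36 and 7.24 in ERα ΔLysM and 8.36, 8.41 and 8.32 in control cells. The pre-osteoclast levels of the genotypes overlapped. Ccnd2 had a difference of 1.09, and no pre-osteoclast array of either genotype detected it. That difference rests on the BMM levels, 9.26, 9.07 and 8.93 in ERα ΔLysM and 10.12, 10.25 and 10.23 in control cells. Arf2 differed by 0.93 and Jmjd1c by 1.08, the last at levels near the limit of detection. Add3 differed by 0.83 on a dim probe that was likewise below detection in the pre-osteoclasts of both genotypes, while its brightest probe differed by 0.05.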

How the results depend on the processing

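No named gene that passed in the main test changed direction under any alternative that tested its probe. Changes of sign among named genes that did not pass were not counted. The 5785 probes that passed in control pre-osteoclasts against BMMs became 1155 when a change of over 2-fold was itself tested (461 higher, 694 lower), and leaving out 1 array gave 4683 to 5758 (2386 to 2994 higher, 2297 to 2764 lower). With centred arrays 1147 were higher. With a replicate block 5026 passed, 2578 higher and 2448 lower. Whether equal replicate numbers mark paired samples is not given in the sources used here. Correlations of -0.26, -0.24 and -0.15 between same-numbered arrays cannot settle it with 3 arrays a group. The remaining alternatives gave 4185 to 6160. Of 386 named genes, those that lost their call numbered 67 with centred arrays, 26 with the replicate block, 17 without the filter, 14 to 27 without 1 array and at most 6 otherwise. The count of 8 genotype differences became 3 over 12 arrays, 3 with the replicate block and 3 to 9 without 1 array. Of 21 cytosolic ribosomal proteins, 8 rose, but 5 without BMM replicate 2 and 4 without BMM replicate 3. The causes were not tested. Signals near background bound the smallest changes that could be seen. Probes that no array of a group detected have lower bounds in place of folds. Where only some arrays of a group detected a probe, the size of its change is approximate. A list median counted as moved when its shift exceeded the median standard error of the list's genes. This was so for 24 of 54 lists without background correction, 8 with the stricter filter and 0 to 5 without 1 array. With centred arrays it was so for 4 lists, after the shift of the median of all probes (-0.28 log2 units) was taken out.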

Other observations

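A few genes were high at 2 days and close to their BMM level again in mature osteoclasts, as values chosen after they were seen and with no test. Slc6a4, the serotonin transporter, averaged 4.63 on the log2 scale in control BMMs, 9.76 in control pre-osteoclasts and 4.87 in control mature osteoclasts. Pgf, a growth factor of the VEGF family, Cav1, the coat protein of caveolae, and Gfi1b, a repressor of blood cell genes, were among the other 12 of the 13 genes with this course. Among the 11 genes with the opposite course were Apoe, Gas6, a ligand of the receptor Mertk, and Crem, a factor of the cyclic AMP response.

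Cyp2s1, Slc6a12 and Akr1c18, which encode a cytochrome P450, a betaine transporter and a steroid-converting reductase, rose at least 66.4-fold, at least 63.9-fold and at least 25.8-fold and belonged to none of the lists. On the lower side, Rnase4, a secreted ribonuclease, differed by -5.97 log2 units in control pre-osteoclasts against BMMs.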
